A study of Mus musculus with 12 samples.

Results

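Collagens are the main structural proteins of the kidney's extracellular matrix. Described here are 10 of the 45777 genes of the deposited mouse table, taken by symbol: 5 chains of the fibrillar types I, III and V (Col1a1, Col1a2, Col3a1, Col5a1 and Col5a2), 3 chains of the basement membrane type IV (Col4a1, Col4a2 and Col4a3) and 2 chains of the microfibrillar type VI (Col6a1 and Col6a3). All 10 passed the filter on low counts. Kidney RNA from male wild type C57BL/6 mice was sequenced in 12 bulk libraries, 3 in each of 4 groups. The normal group had neither cisplatin nor vesicles, and no intravenous injections are listed for it. In each of the other groups the mice had 5 weekly intraperitoneal doses of cisplatin at 9 mg/kg, a platinum drug that injures the renal tubule, and then 5 intravenous injections at 3-day intervals. These injections were phosphate-buffered saline (PBS group), 200 µg of extracellular vesicles from the cells the labels call iMSC (EV200 group) or 400 µg of them (EV400 group). Their kidneys were collected 3 days after the final injection. In PBS against normal, cisplatin and the injections cannot be told apart. The sample titles call the 3 libraries of a group biological replicates. They do not say that each library came from a separate mouse, so p-values measure only the spread between these samples.

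A collagen is built from a triple helix of chains. Types I and III form the banded fibrils of the interstitium, and type V is incorporated into those fibrils and helps to set their width. Type IV chains join into the sheet-like network of basement membranes; in the kidney the α1 and α2 chains are found in basement membranes throughout, while the α3 chain, with α4 and α5, makes the mature glomerular basement membrane and is made by podocytes, the filtering epithelial cells of the glomerulus. Type VI chains assemble into beaded microfilaments between fibrils and basement membranes. In the kidney, fibroblasts and pericytes are known as the main source of fibrillar collagen, whose build-up in the interstitium is a hallmark of fibrosis.

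The members lie on chromosomes 1, 2, 6, 8, 10 and 11 of GRCm38 (RefSeq GRCm38.p6 coordinates). Col3a1 (chromosome 1, 45311538 to 45349706, plus strand) and Col5a2 (45374331 to 45503282, minus strand) are neighbours whose spans are 24.62 kb apart. Col1a1 lies on chromosome 11 (94936224 to 94953042, plus strand), Col1a2 on chromosome 6 (4505618 to 4541543, plus strand) and Col5a1 on chromosome 2 (27886381 to 28039510, plus strand). Col4a1 (chromosome 8, 11198423 to 11312889, minus strand) and Col4a2 (11312805 to 11449287, plus strand) are arranged head to head. By GENCODE their start sites are 21 bases apart, with 22 shared exon bases on opposite strands, while the RefSeq spans overlap by more. Col4a3 lies on chromosome 1 (82586921 to 82722059, plus strand), and 5.6% of its exon bases (563 bases) overlap C430014B12Rik, a processed transcript of the opposite strand. Since the strand setting of the authors' counting is not given in the sources used here, reads from such overlaps cannot be told apart. Col6a1 (chromosome 10, 76708792 to 76726044) and Col6a3 (chromosome 1, 90766860 to 90844001) are both on the minus strand.

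RefSeq promoter windows, 250 bases before a start site, were found for 7 of the 10 members. Printed here are the 3 whose windows hold no GENCODE exon, to set upstream sequence of a pair of fibrillar genes beside that of a microfibrillar one; stretches inside the gene's own RefSeq span (44 bases for Col5a1, 30 for Col6a3) were left out. Each reads 5′ to 3′ on the gene's own strand, and capitals mark matches on either strand to the CCAAT box, the GC box GGGCGG, the TATA box core TATAAA and the CAGACA core of SMAD binding. The windows are chr1:45311288-45311537 (plus strand) for Col3a1, chr2:27886175-27886380 (plus strand) for Col5a1 and chr1:90844002-90844221 (minus strand) for Col6a3.
Col3a1: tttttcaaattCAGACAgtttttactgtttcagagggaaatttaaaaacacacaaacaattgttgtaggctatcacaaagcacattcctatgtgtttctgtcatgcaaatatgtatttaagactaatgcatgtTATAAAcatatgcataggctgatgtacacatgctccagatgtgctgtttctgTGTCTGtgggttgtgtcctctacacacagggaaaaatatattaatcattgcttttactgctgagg
Col5a1: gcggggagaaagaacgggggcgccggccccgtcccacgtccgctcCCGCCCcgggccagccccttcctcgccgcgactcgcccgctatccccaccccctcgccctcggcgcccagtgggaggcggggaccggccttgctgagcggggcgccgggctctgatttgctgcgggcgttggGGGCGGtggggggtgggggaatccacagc
Col6a3: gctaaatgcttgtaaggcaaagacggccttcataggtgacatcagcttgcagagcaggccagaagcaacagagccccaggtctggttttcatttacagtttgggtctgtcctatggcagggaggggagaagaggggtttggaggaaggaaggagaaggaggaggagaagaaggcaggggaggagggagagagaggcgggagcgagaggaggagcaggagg

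The windows differ in base composition. G and C made up 35.2% of the Col3a1 sequence, 77.7% of the Col5a1 sequence and 56.4% of the Col6a3 sequence. The Col3a1 window holds TATAAA beginning 117 bases before the start site and CAGACA at 239 and 65 bases, the latter on the opposite strand. The printed Col5a1 stretch holds GGGCGG at 205 bases, on the opposite strand, and at 73 bases. None of the 4 motifs is in the Col6a3 window. No matches overlap one another in these stretches. Over 250 bases of all 32851 promoters, 12.4% held TATAAA, 17.1% CAGACA, 32.7% GGGCGG and 33.8% CCAAT, and among the 7 members' full windows the counts were 1, 3, 3 and 3. These are letter matches, not binding sites.

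Total counts ran from 46.6 to 62.1 M per library, and replicate libraries differed beyond counting noise. Mitochondrially encoded protein genes held 14.2 to 19.7% of the counts, most in EV400 3. TMM scaling factors were 0.940 to 0.959 in normal and 1.04 to 1.116 in PBS libraries, and among vesicle libraries they ranged from 0.891 in EV400 3 to 1.09 in EV200 3. Adipocyte markers stood apart in PBS 3, at a summed level of 136.4 CPM (counts scaled to library size and TMM factor) against 34.5 to 56.2 CPM in the other libraries. The defining adipocyte gene Adipoq was at 7.67 CPM there and at 0 to 0.124 CPM elsewhere. For the members, 3 libraries stood apart: PBS 2 had the highest CPM of every member but Col4a2 and Col4a3, EV400 3 had the lowest CPM of all 10, and EV200 3 lay far above EV200 1 and EV200 2 for Col1a1, Col1a2 and Col3a1. Some results below are also given with 1 of these libraries, or PBS 1 or PBS 3, left out.

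In the normal kidney the type IV chains were the most abundant members. Measured per length in the authors' TPM (read counts scaled to gene length and library), Col4a3 was at 60.2 ± 4.26, Col4a1 at 49.8 ± 3.70 and Col4a2 at 43.2 ± 1.92 TPM (SD, n = 3). Col1a2 followed at 11.2 ± 0.434 TPM, with the Col3a1 and Col6a1 levels at 7.32 ± 0.261 and 7.20 ± 0.744 TPM. Lowest were Col5a2 at 4.91 ± 0.392, Col6a3 at 4.29 ± 0.282, Col1a1 at 3.03 ± 0.1101 and Col5a1 at 2.04 ± 0.0735 TPM. In this order, neighbours did not overlap between libraries except for Col3a1 with Col6a1 and Col5a2 with Col6a3. Summed over the class, type IV held 78.5 to 80.0% of the members' TPM in normal libraries, fibrillar chains 14.3 to 15.6% and type VI 5.70 to 6.14%. The chains of type I were unequal at the RNA level, with Col1a1 at 0.262 to 0.285 of the Col1a2 TPM.

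**Figure D1:**
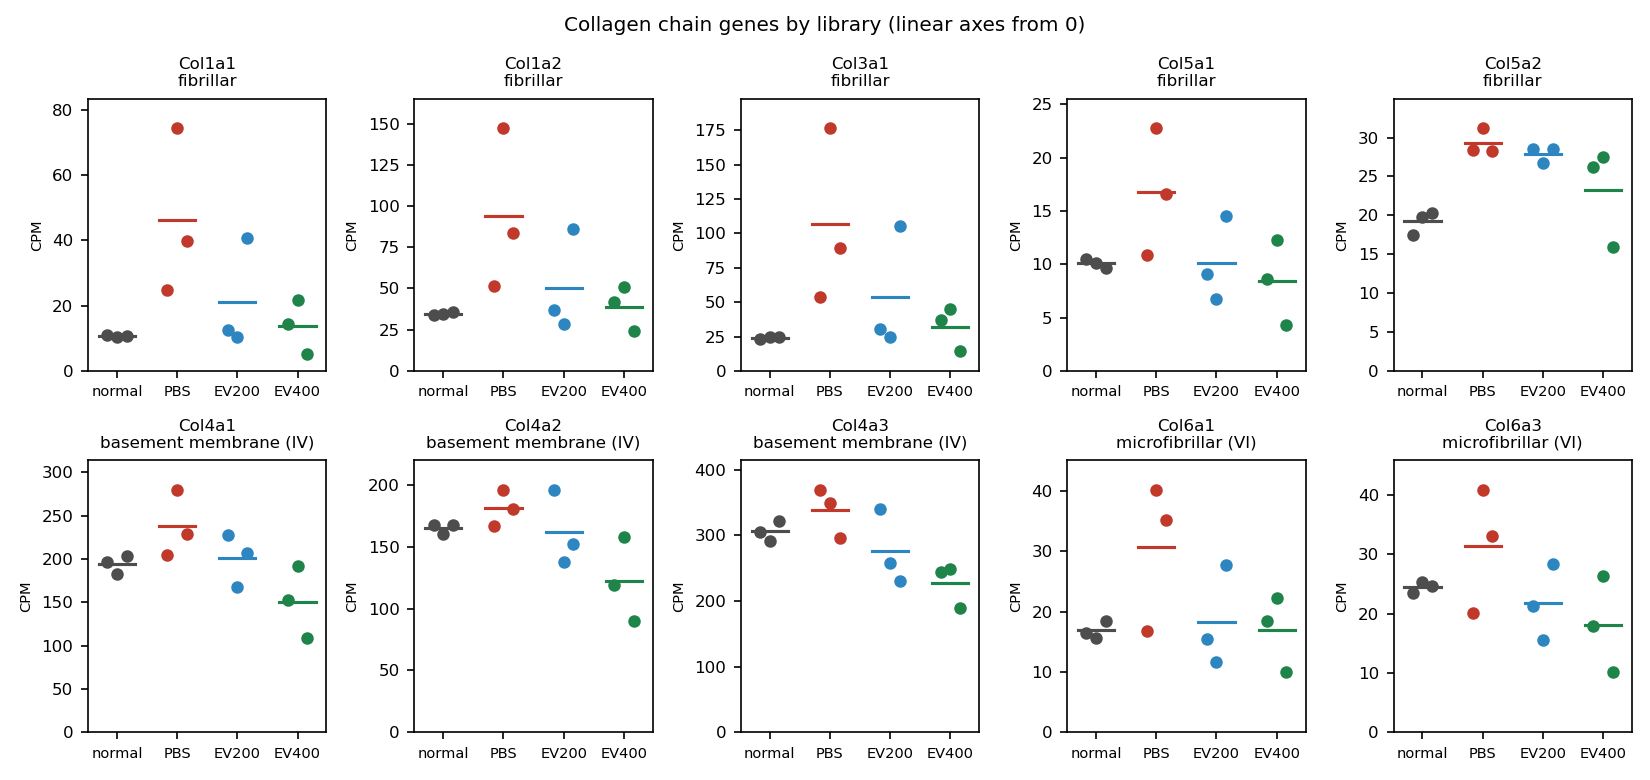
CPM of each of the 10 collagen genes (1 panel each, CPM axis starting at 0) in the 12 libraries by group; points are single libraries and the bar is the group mean. For Col1a1 and Col3a1 the 3 normal libraries lie close together below all PBS libraries, and EV200 3 lies above the other EV200 libraries.

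Fibrillar chains were higher in PBS than in normal kidneys, with PBS 2 the highest library for each. Col1a1, the α1 chain of type I, was at 10.9, 10.4 and 10.6 CPM in the normal libraries and at 24.7, 74.3 and 39.8 CPM in PBS 1, 2 and 3. Col3a1, the only chain of type III, was at 23.1, 24.96 and 24.4 CPM in normal and at 53.7, 176.5 and 89.6 CPM in PBS libraries. Every PBS library lay above every normal library for both genes, with PBS 2 highest and PBS 1 lowest. Col1a1 differed by a log2 fold change of 2.12 (SE 0.58, 4.36-fold) and Col3a1 by 2.15 (SE 0.58, 4.42-fold). Neither passed the quasi-likelihood test of edgeR, adjusted by Benjamini-Hochberg over all 18730 genes tested (adjusted p 0.0592 and 0.0587).

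The partner chains differed in size and in spread. Col1a2, the α2 chain of type I, was at 33.7, 34.8 and 35.6 CPM in normal and at 51.5, 147.3 and 83.9 CPM in PBS libraries, a log2 fold change of 1.44 (SE 0.44). Col5a1, the α1 chain of type V, was at 10.5, 10.2 and 9.67 CPM in normal and at 10.9, 22.8 and 16.6 CPM in PBS libraries, a log2 fold change of 0.73 (SE 0.36). The groups did not overlap for either gene, although PBS 1 was only just above normal for Col5a1. Col5a2, the α2 chain of type V, was at 17.5, 19.9 and 20.3 CPM in normal and at 28.4, 31.2 and 28.3 CPM in PBS libraries, a log2 fold change of 0.61 (SE 0.16). Its PBS libraries lay close together, with a coefficient of variation of 5.78% against 55.0% for Col1a1 and 59.2% for Col3a1. Adjusted p by edgeR's test with Benjamini-Hochberg adjustment were 0.0687 for Col1a2, 0.196 for Col5a1 and 0.0565 for Col5a2, the smallest of the 10 members.

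Type IV chains differed little between PBS and normal libraries on the CPM scale. Col4a1 was at 197, 183 and 204 CPM in normal and at 204.5, 280.0 and 229 CPM in PBS libraries, where the lowest PBS value barely exceeded the highest normal one. Col4a2 was at 167, 160.0 and 167 CPM in normal and at 167, 196 and 180 CPM in PBS libraries. Col4a3 was at 305, 291 and 322 CPM in normal and at 370, 350 and 297 CPM in PBS libraries. Col4a2 and Col4a3 overlapped between the groups, and Col4a3 was the only member whose highest value lay in PBS 1. The log2 fold changes were 0.29 (SE 0.18), 0.13 (SE 0.18) and 0.15 (SE 0.15), with edgeR adjusted p (Benjamini-Hochberg) of 0.304, 0.637 and 0.533. On the TPM scale, which carries no TMM factor, all 3 chains were without overlap higher in PBS libraries: 57.9 to 85.8 against 45.7 to 53.0 TPM for Col4a1, 48.4 to 61.5 against 41.0 to 44.6 TPM for Col4a2, and 65.7 to 82.3 against 55.9 to 64.4 TPM for Col4a3. The TMM factors, which CPM carries, were higher in PBS than in normal libraries. For TPM the share of all genes higher without overlap was not computed, so this separation cannot be read as particular to type IV.

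Type VI chains were intermediate and uneven among PBS libraries. Col6a1, the α1 chain, was at 16.5, 15.7 and 18.5 CPM in normal and at 16.8, 40.2 and 35.2 CPM in PBS libraries, a log2 fold change of 0.86 (SE 0.37). Col6a3, the α3 chain, was at 23.5, 25.4 and 24.7 CPM in normal and at 20.1, 40.9 and 33.1 CPM in PBS libraries, a log2 fold change of 0.36 (SE 0.32). PBS 1 lay within or below the normal range for both genes while PBS 2 and PBS 3 lay above it. Adjusted p by edgeR's test with Benjamini-Hochberg adjustment were 0.146 and 0.475.

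All 10 members had a positive log2 fold change in PBS against normal, with a median of 0.67 against 0.00 over all genes tested. The median was 1.44 for the 5 fibrillar, 0.15 for the 3 type IV and 0.61 for the 2 type VI chains. In edgeR's test 0 of 10 members were called, where 2.74% of all genes were, and 5 had an unadjusted p under 0.05 (Col1a1, Col1a2, Col3a1, Col5a2 and Col6a1), where 17% of all genes had one in this direction. Groups did not overlap for 6 members, the 5 fibrillar chains and Col4a1, where 20.3% of all genes were higher without overlap. DESeq2 called 4 members (Col1a1, Col1a2, Col3a1 and Col5a2) and 16.1% of all genes. limma-voom with sample quality weights called these 4 with Col5a1 and Col6a1, 6 in all, and 32.9% of all genes. Without PBS 1, edgeR's test called 5 members, Col1a1, Col1a2, Col3a1, Col5a2 and Col6a1, while its calls over all genes rose from 514 to 2277. The Col1a1 log2 fold change was then 2.42 (edgeR adjusted p 0.0389, Benjamini-Hochberg). Without PBS 2 it was 1.61, with an edgeR adjusted p of 0.215 (Benjamini-Hochberg). Without PBS 3, the library with high adipocyte markers, edgeR's test called 0 members and 79 genes in all.

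**Figure D2:**
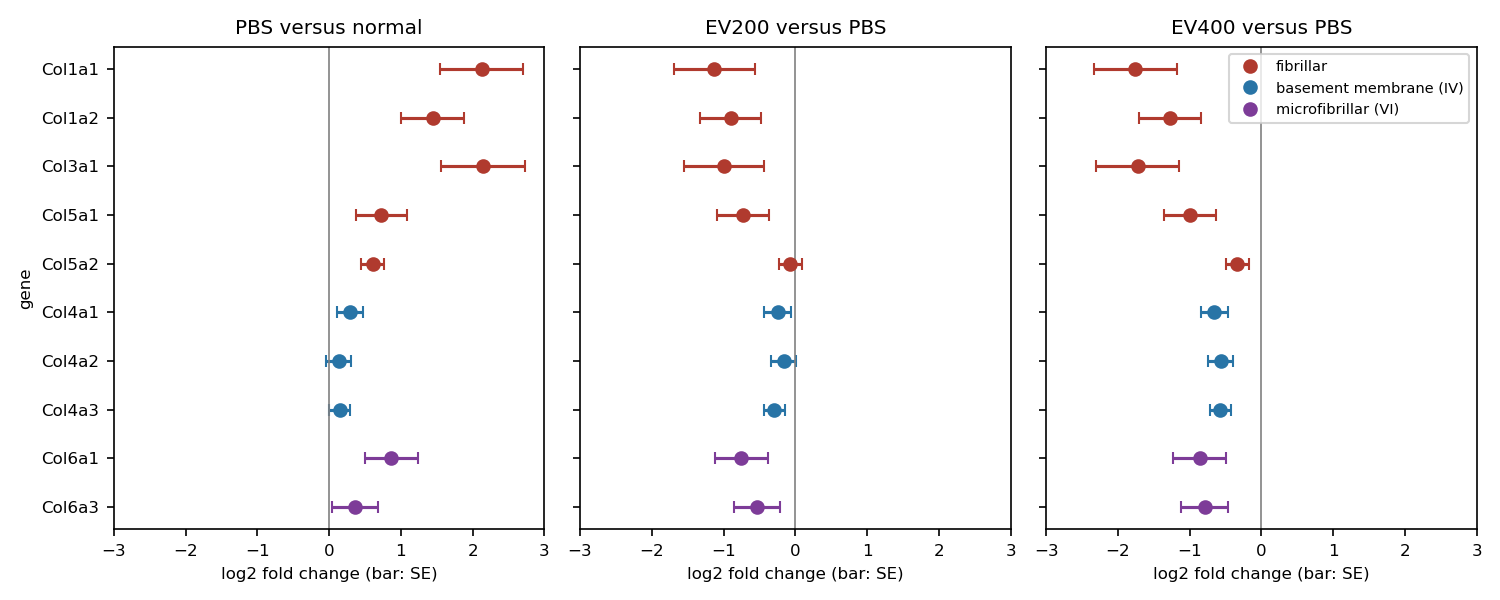
Log2 fold change (point) with its standard error (bar) from the edgeR fit for the 10 collagen genes, coloured by class, in PBS against normal, EV200 against PBS and EV400 against PBS. In the first panel Col1a1 and Col3a1 lie at 2.12 and 2.15 and the type IV chains at 0.13 to 0.29; in the panel of EV400 against PBS all 10 points lie below 0, from -1.76 to -0.33.

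The comparisons of the vesicle groups with PBS ask whether collagen RNA differed after the injections of vesicles. They share the PBS libraries with the comparison above, so a high PBS library raises one difference and lowers the other. In EV400 libraries Col1a1 was at 14.3, 21.6 and 5.17 CPM and Col3a1 at 37.3, 44.7 and 14.6 CPM, all below the lowest PBS library. Col1a2 was at 41.6, 51.0 and 24.1 CPM, with the highest EV400 library just under the lowest PBS library at 51.5 CPM. Col5a1 was at 8.60, 12.3 and 4.34 CPM and overlapped with PBS, while Col5a2 was at 26.2, 27.5 and 15.9 CPM, just below PBS. Set against PBS, Col1a1 had a log2 fold change of -1.76 (SE 0.58) and Col3a1 of -1.73 (SE 0.57). The values were smaller for the partner chains, with -1.28 (SE 0.43) in Col1a2, -0.99 (SE 0.36) in Col5a1 and -0.33 (SE 0.16) in Col5a2. Their adjusted p by edgeR's test (Benjamini-Hochberg) ran from 0.158 for Col1a1 to 0.224 for Col5a2.

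The type IV chains had smaller differences than Col1a1, Col1a2, Col3a1 and Col5a1 in this comparison, but larger ones than Col5a2. In EV400 libraries Col4a1 was at 152, 191 and 109 CPM, Col4a2 at 119, 158 and 89.8 CPM and Col4a3 at 244, 249.5 and 190 CPM. All 3 genes were below every PBS library, and EV400 3 was the lowest library for each. The log2 fold changes were -0.66 (SE 0.18), -0.57 (SE 0.18) and -0.57 (SE 0.15), and the edgeR adjusted p of 0.128 for Col4a3 (Benjamini-Hochberg) was the smallest of the 10 members. Of the type VI chains, Col6a1 was at 18.5, 22.3 and 10.04 CPM and Col6a3 at 17.8, 26.3 and 10.2 CPM in EV400 libraries. Both overlapped with PBS through the low PBS 1 library, with log2 fold changes of -0.86 (SE 0.37) and -0.79 (SE 0.32).

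All 10 members had a negative log2 fold change in EV400 against PBS, with a median of -0.83 against -0.03 over all genes tested and of -1.28, -0.57 and -0.83 in the fibrillar, type IV and type VI classes. By edgeR's test 0 members were called, where 0.0801% of all genes were, and 9 (all but Col5a2) had an unadjusted p under 0.05, where 12.6% of all genes had one in this direction. The 7 members whose libraries were lower without overlap were Col1a1, Col1a2, Col3a1, Col5a2 and the type IV chains, where 13.8% of all genes were. DESeq2 called 3 members, Col4a1, Col4a2 and Col4a3, and 5.8% of all genes, and limma-voom called 9, all but Col5a2, and 14.6% of all genes. The limma-voom calls weighted the libraries unequally, with EV400 1 and PBS 3 counting most. Weights were 3.38, 0.815 and 0.344 for EV400 1, 2 and 3, and 0.666, 0.163 and 3.47 for PBS 1, 2 and 3. Without EV400 3 the Col1a1 log2 fold change was -1.36 and that of Col4a3 -0.45, with edgeR adjusted p of 0.468 and 0.444 (Benjamini-Hochberg). Without PBS 2 the Col1a1 value was -1.23, with an edgeR adjusted p of 0.424 (Benjamini-Hochberg). Without PBS 3 edgeR's test called 0 members and 26 genes in all.

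In the EV200 group 1 library differed from the others for the fibrillar chains. Col1a1 was at 12.6, 10.4 and 40.7 CPM in EV200 1, 2 and 3, Col1a2 at 36.8, 28.3 and 86.3 CPM and Col3a1 at 30.4, 24.8 and 105.6 CPM. For these genes EV200 1 and EV200 2 were below every PBS library, and EV200 3 lay between the PBS libraries. Col5a1 was at 9.14, 6.76 and 14.6 CPM with the same order, whereas Col5a2 was even, at 28.5, 26.7 and 28.5 CPM, within or near its PBS range. Col4a1 was at 228, 168 and 207 CPM, Col4a2 at 196, 138 and 152 CPM and Col4a3 at 341, 259 and 230 CPM, so that EV200 3 was not the highest for type IV. Col6a1 was at 15.5, 11.6 and 27.7 CPM and Col6a3 at 21.3, 15.6 and 28.3 CPM, both highest in EV200 3.

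Log2 fold changes in EV200 against PBS were negative for all 10 members and ran from -1.13 (SE 0.56, Col1a1) to -0.07 (SE 0.16, Col5a2), with a median of -0.63 against -0.00 over all genes tested. With Benjamini-Hochberg adjustment edgeR's test called 0 members (adjusted p 0.657 to 0.885), where 0.016% of all genes were. None had an unadjusted p under 0.05, where 3.08% of all genes had one in this direction, and for none were the groups without overlap, where 4.94% of all genes were lower without it. DESeq2 called 0 members and 0.249% of all genes, and limma-voom called 6 (Col1a1, Col1a2, Col3a1, Col5a1, Col6a1 and Col6a3) and 8.8% of all genes. The weights of limma-voom were 0.283 for EV200 3 and 0.163 for PBS 2, against 2.97 for EV200 2 and 3.47 for PBS 3. Without EV200 3 the log2 fold changes of Col1a1, Col1a2 and Col3a1 were -2.01, -1.53 and -1.95, each with an edgeR adjusted p of 0.199 (Benjamini-Hochberg). Without PBS 2 they were -0.60, -0.42 and -0.41. Without PBS 3 edgeR's test called 0 members and 6 genes in all.

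With the mean of both doses set against PBS, the log2 fold changes ran from -1.44 (SE 0.47, Col1a1) to -0.20 (SE 0.14, Col5a2), with a median of -0.73. Of the members 0 were called by edgeR's test, where 0.0374% of all genes were, and 9, all but Col5a2, had an unadjusted p under 0.05, where 10.2% of all genes had one in this direction. DESeq2 called Col4a3 alone and 2.47% of all genes, and limma-voom called 9 members, all but Col5a2, and 18.9% of all genes.

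**Figure D3:**
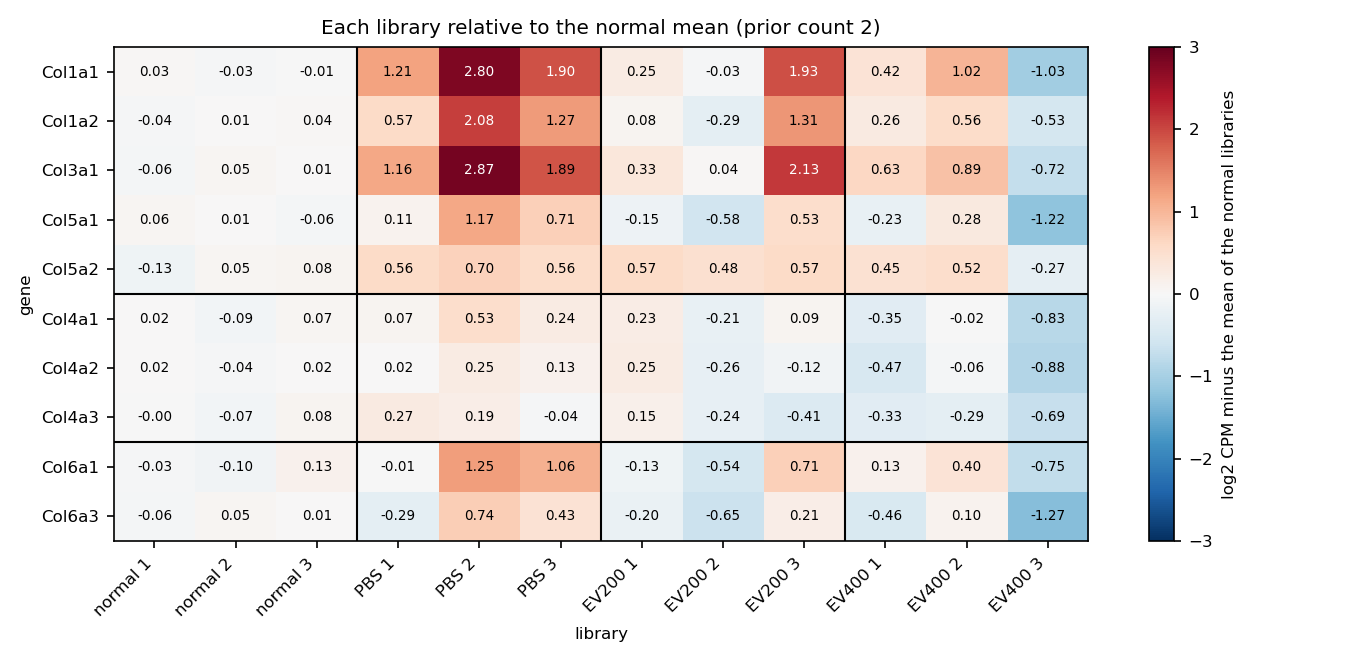
Log2 CPM of each of the 10 collagen genes (rows) in each of the 12 libraries (columns), shown by colour relative to the gene's mean over the 3 normal libraries. Col1a1, Col1a2 and Col3a1 are most above normal in PBS 2, EV200 3 and PBS 3, and EV400 3 is below normal for all 10 genes.

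Between the doses, all 10 members had a negative log2 fold change in EV400 against EV200, from -0.73 (SE 0.56, Col3a1) to -0.11 (SE 0.37, Col6a1). No member (0 of 10) was called by edgeR's test, where 0.00534% of all genes were, and 2, Col4a1 and Col4a2, had an unadjusted p under 0.05, where 3.81% of all genes had one in this direction. DESeq2 called 0 members and 0.0518% of all genes, and limma-voom 0 members and 0.774% of all genes. Without EV200 3 the direction turned for Col1a1 (log2 fold change 0.25), Col1a2 (0.26), Col3a1 (0.23), Col5a1 (0.09) and Col6a1 (0.32). Without EV400 3 it turned for Col5a1 (0.05), Col6a1 (0.16) and Col6a3 (0.03).

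Set against normal rather than PBS, the EV200 group had log2 fold changes of 0.998 (Col1a1, SE 0.57), 1.15 (Col3a1, SE 0.57), 0.54 (Col1a2, SE 0.43), 0.01 (Col5a1, SE 0.36) and 0.54 (Col5a2, SE 0.16). Only Col5a2 was higher without overlap, where 11.9% of all genes were, and only Col5a2 had an unadjusted p under 0.05 by edgeR's test, where 8.86% of all genes had one in this direction. By edgeR's test 0 members were called, where 0.0694% of all genes were. DESeq2 called 0 members and 2.41% of all genes, and limma-voom called Col5a2 and 5.86% of all genes. Type IV and type VI values lay between -0.17 (Col6a3) and 0.11 (Col6a1). In EV400 against normal, the fibrillar log2 fold changes were 0.37 in Col1a1, 0.17 in Col1a2, 0.42 in Col3a1, -0.26 in Col5a1 and 0.27 in Col5a2, and all 5 chains overlapped with normal. The type VI values were 0.003 (Col6a1, SE 0.37) and -0.44 (Col6a3, SE 0.32), also with overlap. Type IV values were negative, at -0.37 (SE 0.18) for Col4a1, -0.43 (SE 0.18) for Col4a2 and -0.43 (SE 0.15) for Col4a3. Col4a2 and Col4a3 were lower than normal without overlap, where 10.6% of all genes were, and both had an unadjusted p under 0.05, where 3.67% of all genes had one in this direction. For EV400 against normal edgeR's test called 0 members, where 0% of all genes were. DESeq2 called 0 members and 0.127% of all genes, and limma-voom 3 members (Col5a2, Col4a2 and Col4a3) and 7.91% of all genes.

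The fibrillar chains took a larger share of the 10 members' RNA in every PBS library than in any normal one. Of the members' summed TPM they held 21.6, 38.5 and 29.2% in PBS 1, 2 and 3, while type IV held 73.7, 54.6 and 62.8%. Other collagens are not counted in these shares, among them Col4a4, at a mean of 64.97 TPM in normal and 74.15 TPM in PBS libraries. In EV200 libraries the fibrillar share was 15.3, 16.9 and 34.6%, and in EV400 libraries 22.4, 23.0 and 16.5%. The shares in EV200 3, EV400 1 and EV400 2 lay within the PBS range, while those in EV200 1, EV200 2 and EV400 3 lay below it and closer to normal libraries. The summed TPM of all 10 members ran from 97.0 in EV400 3 to 420.6 in PBS 2, so the EV400 3 share, close to normal, stood on a total below every normal library (181.8 to 204.1 TPM).

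**Figure D4:**
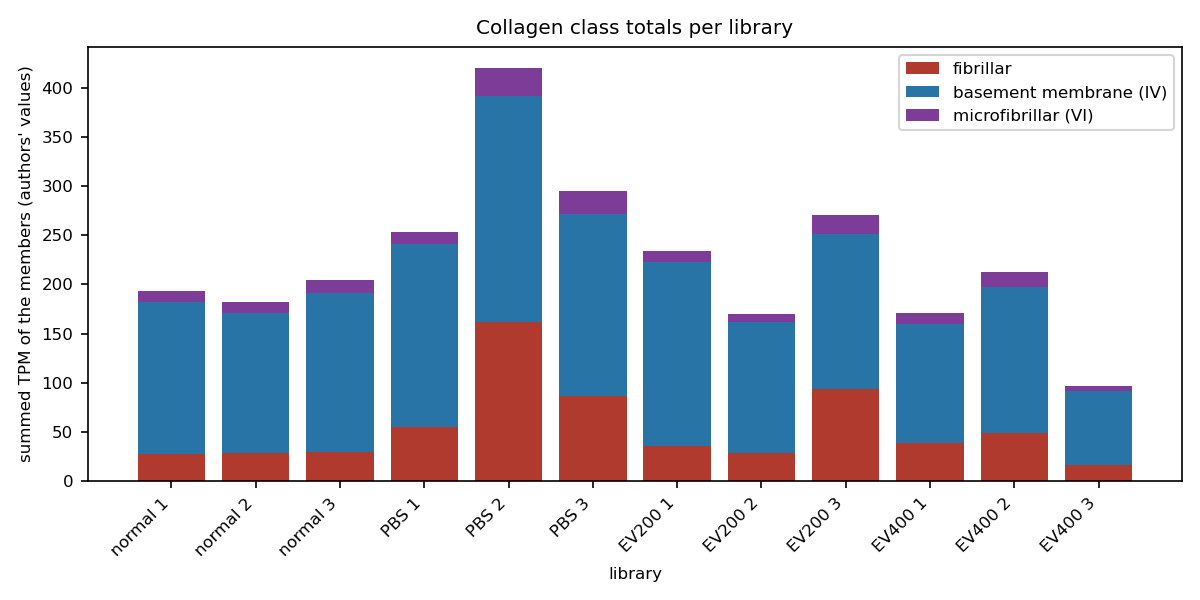
Summed TPM of the members (axis starting at 0) in each of the 12 libraries, stacked by collagen class. The fibrillar part is largest in PBS 2 at 162.0 TPM, EV200 3 at 93.5 TPM and PBS 3 at 86.1 TPM, and smallest in EV400 3 at 15.98 TPM.

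Ratios of counts within a library compare 2 single genes free of scaling factors. Col1a1 does not stand for all fibrillar chains, which differed in size. In PBS against normal the log2 fold changes of Col1a2 (1.44) and Col3a1 (2.15) lay above that of Col6a1 (0.86). Those of Col5a1 (0.73) and Col5a2 (0.61) lay below it. The log2 ratio of Col1a1 to Col4a1 was -4.19 ± 0.07 in normal and -2.50 ± 0.57 in PBS libraries (SD, n = 3), a difference of 1.70 in which all PBS libraries lay above all normal ones. The exact two-sided permutation test gave p = 0.1, the smallest that 3 against 3 allows, and 0.2 after Benjamini-Hochberg adjustment over the 12 ratio tests. Against PBS the ratio was 1.16 lower on the log2 scale in EV400 (-3.65 ± 0.66, exact permutation p = 0.1, adjusted 0.2) and 1.01 lower in EV200 (-3.51 ± 1.01, exact permutation p = 0.3, adjusted 0.45). For both doses together the difference was -1.09 (exact permutation p = 0.0714, adjusted 0.2, with 0.0119 the smallest possible). The ratio of Col1a1 to Col6a1 differed by 1.21 in PBS against normal, -0.998 in EV400 against PBS and -0.51 in EV200 against PBS (exact permutation p = 0.1, 0.1 and 0.3). With 1 library left out, the EV200 difference from PBS ran from -1.59 (without EV200 3) to -0.68 (without EV200 1) for Col1a1 to Col4a1, and from -0.76 (without EV200 3) to -0.33 (without PBS 2) for Col1a1 to Col6a1. The ratio of Col4a1 to Col4a3, a pair within type IV, differed by 0.14, -0.10 and 0.06 (exact permutation p = 0.4, 0.7 and 0.9), with groups that overlapped.

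Within a class, some pairs of chains kept their proportion and others did not. On the TPM scale Col3a1 was 2.21 to 3.02 times Col1a1 in all 12 libraries, although Col1a1 itself ranged from 1.26 to 25.4 TPM. Col4a2 was 0.717 to 0.897 of Col4a1 in all 12 libraries, and Col4a3 was 0.854 to 1.39 of it. The Col1a1 level was 0.418 to 0.445 of Col1a2 in PBS libraries, above the 0.262 to 0.285 of normal ones. It was 0.303, 0.324 and 0.415 in EV200 and 0.302, 0.373 and 0.189 in EV400 libraries. The Col5a1 to Col5a2 ratio ran from 0.200 in EV200 2 to 0.579 in PBS 2, and the Col6a3 to Col6a1 ratio was 0.387 to 0.506 in PBS against 0.565 to 0.663 in normal libraries. These proportions are descriptions with no test.

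Other genes of the collagen pathway were read from 7 lists, of which 8 genes passed edgeR's test in PBS against normal, where 2.74% of all genes did, and 0 in the other 6 comparisons. Among 7 other type IV and VI chains, all tested, 1 rose: Col4a6, the α6 chain of type IV, from 1.28 ± 0.1 to 4.79 ± 1.33 CPM (SD, n = 3; log2 fold change 1.91, SE 0.39, edgeR adjusted p 0.0428). Of 16 tested genes among 20 fibril-associated, network and transmembrane collagens, 2 rose. Col12a1, a collagen that binds to the surface of type I fibrils, went from 5.30 ± 0.634 to 21.5 ± 12.9 CPM (log2 fold change 2.02, SE 0.45), and Col8a1, a network-forming chain, from 4.55 ± 0.849 to 9.01 ± 2.12 CPM (0.99, SE 0.22). Of 5 tested among 6 other fibrillar collagens none passed, and those with the smallest p were Col11a1, at 0.0821 ± 0.142 and 0.334 ± 0.228 CPM, and Col24a1, at 1.02 ± 0.119 and 0.803 ± 0.122 CPM in normal and PBS libraries.

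The calls among enzymes and partners are set against the same 2.74% of all genes. Of 14 tested cleavage and crosslinking genes out of 15, 1 rose: Lox, whose product crosslinks collagen by oxidizing lysines, from 1.17 ± 0.305 to 8.21 ± 5.95 CPM (log2 fold change 2.82, SE 0.66). Of 19 tested folding and modification genes out of 20, 1 rose: Plod2, a lysyl hydroxylase, from 29.6 ± 0.180 to 43.2 ± 9.41 CPM (0.55, SE 0.12). Among 15 basement membrane partners, Lama1, the laminin α1 chain, fell from 36.4 ± 1.83 to 27.1 ± 2.92 CPM (-0.42, SE 0.09). Of 12 tested collagen receptor and uptake genes out of 13, 1 rose: Antxr1, a receptor that binds collagen, from 3.68 ± 0.153 to 10.8 ± 4.81 CPM (1.56, SE 0.36). The adjusted p of Col12a1, Col8a1, Lox, Plod2, Lama1 and Antxr1 by edgeR's test with Benjamini-Hochberg adjustment lay between 0.0436 (Lama1) and 0.0471 (Lox). The median log2 fold change of the lists ran from 0.04 (folding and modification) to 0.94 (receptors and uptake), against 0.00 over all genes tested. Of the 8 genes called in the 7 lists, 8 passed without PBS 1, 2 (Plod2 and Lama1) without PBS 3, and 0 without PBS 2 or without any 1 of the normal libraries. Over all genes the calls in these settings were 2277 without PBS 1, 79 without PBS 3, 1 without PBS 2 and 0 without each normal library, against 514 with all libraries.

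Markers of matrix-producing cells, like Col1a1 and Col3a1, were highest in PBS 2, PBS 3 and EV200 3 and lowest in EV400 3. The summed level of 10 fibroblast and pericyte markers was 150.5 to 154.9 CPM in normal and 179.1, 361.4 and 283.6 CPM in PBS libraries. It was 152.4, 156.1 and 268.7 CPM in EV200 and 178.2, 192.9 and 121.7 CPM in EV400 libraries, with no marker at 0 in any library. In PBS against normal 3 of the 10 rose by edgeR's test (Lum, Gsn and Dpt), where 2.74% of all genes were called. The median log2 fold change of the 10 was 0.91. The sum of 7 smooth muscle and myofibroblast markers was 122.9 to 129.7 CPM in normal, 139.3 to 208.5 CPM in PBS, 130.5 to 182.5 CPM in EV200 and 109.9 to 147.3 CPM in EV400 libraries; 1 marker, Postn, rose in PBS. Fewer cells of a type and less RNA per cell cannot be told apart in bulk tissue. The part of these cells in the collagen values was not tested.

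Macrophage markers were highest and lowest in these same libraries. The sum of 10 of them was 131.2 to 150.5 CPM in normal, 315.5, 627.8 and 393.1 CPM in PBS, 183.4, 205.8 and 559.9 CPM in EV200 and 257.6, 268.7 and 125.1 CPM in EV400 libraries, and 3 of the 10 rose in PBS against normal (Lyz2, C1qa and Cd68). Beside the type IV chains, the sum of 10 podocyte markers was 325.7 to 380.8 CPM in normal, 405.6 to 519.7 CPM in PBS, 392.2 to 515.5 CPM in EV200 and 349.2 to 500.0 CPM in EV400 libraries, and 0 of the 10 passed edgeR's test in PBS against normal (7, all higher, with an unadjusted p under 0.05), where 2.74% of all genes passed and 17% had such a p in this direction. The sum of 10 endothelial markers was 544.2 to 572.3 CPM in normal, 476.1 to 551.9 CPM in PBS, 516.3 to 576.7 CPM in EV200 and 464.5 to 556.6 CPM in EV400 libraries, with 0 of 10 passing edgeR's test in PBS against normal. For 2 of them the unadjusted p was under 0.05, where 5581 of the 18730 genes tested had one in either direction. Proximal tubule markers, the most abundant of the marker lists, summed to 40440 to 43660 CPM in normal, 25870 to 33630 CPM in PBS, 28850 to 37070 CPM in EV200 and 35980 to 43840 CPM in EV400 libraries, with EV400 3 the highest of all. In PBS against normal 1 of these 10 markers, Cubn, fell by edgeR's test, where 2.74% of all genes were called. Of the 10, 9 had an unadjusted p under 0.05, where 2395 of the 18730 genes tested had one in this lower direction. The sum of 8 tubular injury markers was 527.9 to 628.6 CPM in normal, 1160.0 to 1597 CPM in PBS, 889.6 to 1916 CPM in EV200 (highest in EV200 3) and 667.6 to 971.6 CPM in EV400 libraries, and 4 of the 8 rose in PBS against normal (Lcn2, Spp1, Clu and Sox9). The sum of 7 urothelial markers was 1.55 to 3.53 CPM in normal, 9.12 to 24.8 CPM in PBS, 2.07 to 26.2 CPM in EV200 and 1.79 to 6.63 CPM in EV400 libraries, and 1 of the 7, Psca, rose in PBS against normal. Loop, distal and collecting duct markers, 9 genes, summed to 3357 to 3703 CPM in normal and 4077 to 5034 CPM in PBS libraries. Their sum was 4621 to 5041 CPM in EV200 and 3919 to 4601 CPM in EV400 libraries. Of the 9, 1 (Slc12a1) rose in PBS against normal. Among PBS libraries this sum, like Col4a3, was highest in PBS 1, where the podocyte sum was lowest at 405.6 CPM. Over all marker lists 15 genes were called in PBS against normal, where 2.74% of all genes were. Of these, 15 passed without PBS 1, 1 (Slc12a1) without PBS 3, and 0 without PBS 2, without any 1 of the normal libraries or with the replicate block. The part of these cells in the collagen values was likewise not tested.

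The genes most alike in pattern were searched over the 12 libraries among 10699 genes averaging at least 5 CPM, by the root mean square difference of centred log2 CPM. Nearest to Col1a1 was Col3a1, at 0.13, followed by Ccr2 at 0.24, a chemokine receptor of monocytes, and by Cdh11, Adcy7 and Syk. The median gene lay at 1.07. Col1a2 ranked 26 and Col5a2 740 for Col1a1. Nearest to Col4a1 was Col4a2, at 0.09 (median gene 0.37), followed by Prr12, Notch2, Mtss2 and Myh9. Nearest to Col4a3 were Slx4 at 0.09 and, second, its chromosome 1 neighbour Col4a4 at 0.10, the chain with which it assembles (median gene 0.32), then Fam184a. Nearest to Col6a1 was Col6a2 at 0.12 (median gene 0.60), another chain of the same type, followed by Bgn, which encodes the proteoglycan biglycan, Cyp1b1, Gucy1a1 and Tmem119. The points share the library, its depth and its group.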

How the data were processed

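Poly(A) RNA was made into stranded libraries, per the labels' protocols. Per the submitters' processing notes, the tools included HISAT2 2.1.0 as well as StringTie 2.1.3b, Trimmomatic 0.38 and FastQC 0.11.7, with builds GRCm38 and mm10. Which program counted reads, how it treated strand and which annotation it used is not given in the sources used here. In 1 table the authors deposited read counts and TPM values of 45777 genes, both used as they stand; 12 per-sample FPKM columns were not used. Counts compare groups and TPM compares genes.

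Counts of all 12 libraries were fitted together by edgeR 4.0.16 in R 4.3.3 (quasi-likelihood, TMM factors, 8 residual degrees of freedom). Its filter by group kept 18730 genes. Calls needed a Benjamini-Hochberg adjusted p under 0.05. The standard error is the absolute log2 fold change divided by the square root of F. Alternatives were the size factors of DESeq2, no filter, DESeq2 1.42.0, limma-voom (limma 3.58.1) with sample quality weights, a block for replicate number, only the compared groups, and leaving out each library; applying them to called list genes was chosen after seeing the data. The test was checked on simulated counts with the same dispersion of a gene in all groups. That check does not cover groups of unequal spread, such as normal and PBS here. Of the gene IDs, 45679 matched RefSeq GRCm38.p6; exon overlaps come from GENCODE vM21.

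The members and lists were chosen with earlier results of these data known. Named were all 10 members, up to 3 called genes per pathway list or the 2 with the smallest p, and the 5 genes most alike to Col1a1, Col4a1, Col4a3 and Col6a1; called markers and Adipoq were named after their values were seen. Some genes that this rule names are not reported here.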

Additional observations from a re-analysis of the deposited data

How the results depend on the processing

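The number of members called in PBS against normal moved from 0 to 4 with DESeq2, 6 with limma-voom and 4 with only the compared groups, and was 0 to 5 when 1 library was left out. limma-voom called 6 members in EV200 against PBS, 9 in EV400 against PBS, 9 for both doses, 1 in EV200 against normal and 3 in EV400 against normal; DESeq2 called 3 in EV400 against PBS and 1 for both doses. Of all genes, 514 were called in PBS against normal, and 299 without a filter, 2806 with DESeq2, 6164 with limma-voom, 1449 with only the compared groups and 0 to 2277 with 1 library left out (most without PBS 1). In the same order of DESeq2, limma-voom and only the compared groups, the calls were 42, 1649 and 0 in EV200 against PBS (3 in the main analysis, 1 to 6 with 1 library left out), 882, 2731 and 2 in EV400 against PBS (15, and 0 to 26), 362, 3543 and 1 for both doses (7, and 1 to 18), 13, 145 and 0 in EV400 against EV200 (1), and 486, 1098 and 28 in EV200 against normal (13, and 2 to 58). In EV400 against normal DESeq2 called 29 and limma-voom 1481 genes (0 in the main analysis). The causes were not tested.

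The labels do not say that replicate numbers pair the libraries, and correlations of deviations among 3 libraries a group cannot decide it. The 18 correlations between equal numbers ran from -0.385 to 0.344, 2 of them over 0.1. Unequal numbers reached 0.494 (PBS 2 with EV200 3), and 6 of 12 libraries correlated best with their own number. With the replicate block, 0 members were called in each comparison and the calls over all genes were 0 in PBS against normal, 0 in EV200 against PBS, 10 in EV400 against PBS (15 without the block), 8 for both doses (7 without it), 0 in EV400 against EV200, 0 in EV400 against normal and 6 in EV200 against normal.

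Directions of members turned in comparisons of the doses with each other or with normal. With limma-voom, EV400 against EV200 gave 0.26 for Col1a1, 0.37 for Col1a2, 0.34 for Col3a1, 0.21 for Col5a1, 0.49 for Col6a1 and 0.093 for Col6a3, and EV200 against normal gave -0.11 for Col1a2, -0.42 for Col5a1, -0.12 for Col4a1 and -0.38 for Col6a1. With 1 library left out, EV400 against EV200 ran from -1.12 to 0.25 for Col1a1, -0.66 to 0.26 for Col1a2, -1.07 to 0.23 for Col3a1, -0.65 to 0.085 for Col5a1, -0.36 to 0.32 for Col6a1 and -0.63 to 0.026 for Col6a3. EV200 against normal ran from -0.091 to 0.84 for Col1a2, -0.35 to 0.24 for Col5a1, -0.043 to 0.18 for Col4a1, -0.17 to 0.093 for Col4a2, -0.32 to 0.37 for Col6a1 and -0.41 to 0.032 for Col6a3. EV400 against normal ran from -0.13 to 0.77 for Col1a1, -0.079 to 0.44 for Col1a2, -0.64 to 0.067 for Col5a1 and -0.25 to 0.29 for Col6a1. The log2 ratio of Col4a1 to Col4a3 ran from -0.11 to 0.16 in EV200 against PBS and from -0.19 to 0.077 for both doses. In PBS against normal and in each vesicle group against PBS no member's direction turned under any of these alternatives. Of the 8 pathway list genes called in PBS against normal, 8 passed with DESeq2, 8 with limma-voom, 7 with only the compared groups, 3 without a filter and 0 with the replicate block.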
